A study of Rattus norvegicus with 82 samples.

Results

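Left ventricular (LV) cardiomyocytes from rats with a clip around the aorta, sampled while the hypertrophy was still compensated (LV AOB-H), were compared with LV cardiomyocytes of sham-operated rats of the same stage (LV Sham-H). Libraries were chosen by the group and ventricle named in their titles, which gave 6 LV AOB-H and 7 LV Sham-H libraries, 13 of the 82 libraries of the study. Each library came from another animal, and the right ventricular (RV) cardiomyocytes of the same animals were sequenced as separate libraries. All animals were first-generation offspring of Wistar Kyoto mothers and Lewis fathers, with no transgene. The labels gave an age of 11 weeks and a time since surgery of 7 weeks for both groups, while the text of the study has the rats older when they were clipped, so the age is uncertain. The LV AOB-H group held 2 males and 4 females, and the LV Sham-H group 3 males and 4 females. The clip did not narrow the aorta when it was placed, so the load arose as the young rats grew around it. Hearts were digested with collagenase on a Langendorff apparatus and the cardiomyocytes were enriched by centrifugation, so RNA of other heart cells could remain. RNA abundance per gene was measured by sequencing rRNA-depleted total RNA, and raw read counts were analysed.

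Pressure overload makes cardiomyocytes grow in width. In the rodent LV, sustained load is known for the renewed expression of genes of the fetal heart, such as the natriuretic peptides *Nppa* and *Nppb*, the slow myosin heavy chain *Myh7* and skeletal actin *Acta1*, and for higher levels of stretch-responsive sarcomere genes such as *Ankrd1*. In decompensation, matrix, inflammatory and metabolic genes are commonly affected as well. The comparison asks which of these genes had changed in the loaded ventricle before it failed.

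Counts on genes summed to 6675287 to 15582100 per LV AOB-H library and to 11606713 to 19665439 per LV Sham-H library. Defining cardiomyocyte genes were abundant in every library, and the summed normalized count of 9 ventricular cardiomyocyte markers was 838958 in LV AOB-H replicate 6, 1321780 to 1435281 in the other 5 LV AOB-H libraries and 984280 to 1529182 in LV Sham-H. A normalized count is the raw count divided by the TMM-adjusted size of its library and multiplied by the mean of that size over all 82 libraries. Replicate 6 of LV AOB-H stood apart. It had the fewest counts, and its 50 highest genes took 20.4% of them, against 26.9% to 28.0% in the other LV AOB-H libraries. Its 8 endothelial markers summed to 64503 normalized counts, against 20925 to 26764 in the other 5 and 17718 to 42314 in LV Sham-H. Its 10 fibroblast markers summed to 15832, against 3808 to 6990 and 3433 to 11005, and its 8 macrophage markers to 1338, against 553.5 to 684.1 and 436.2 to 1641. The neutrophil markers summed to 37.3 in replicate 6 and to at most 3.12 in the other 12 libraries. The RV library of the same animal also had more endothelial marker counts, 35601, than the other RV AOB-H libraries (12131 to 14327). Among the sham libraries, replicate 4 had the highest sums for endothelial, fibroblast, mural and macrophage markers. Replicates 4, 5 and 6 of LV Sham-H, all female, differed from the rest in another way. The median level of the 2990 longest genes tested (3.31 to 23.5 kb), relative to that of the 2989 shortest (up to 1.47 kb), was -0.18 to -0.47 on the log2 scale in these 3 libraries, 0.02 to 0.16 in the other 4 sham libraries, -0.03 to 0.07 in LV AOB-H replicates 1 to 5 and 0.54 in replicate 6. The main comparison is therefore also given without LV AOB-H replicate 6, and its counts also without the 4 libraries that stood apart (5 LV AOB-H against 4 LV Sham-H libraries, with 1 female among the latter), a set chosen after seeing the data. In such preparations, more cells of a type and more RNA per cell cannot be told apart.

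**Figure D1:**
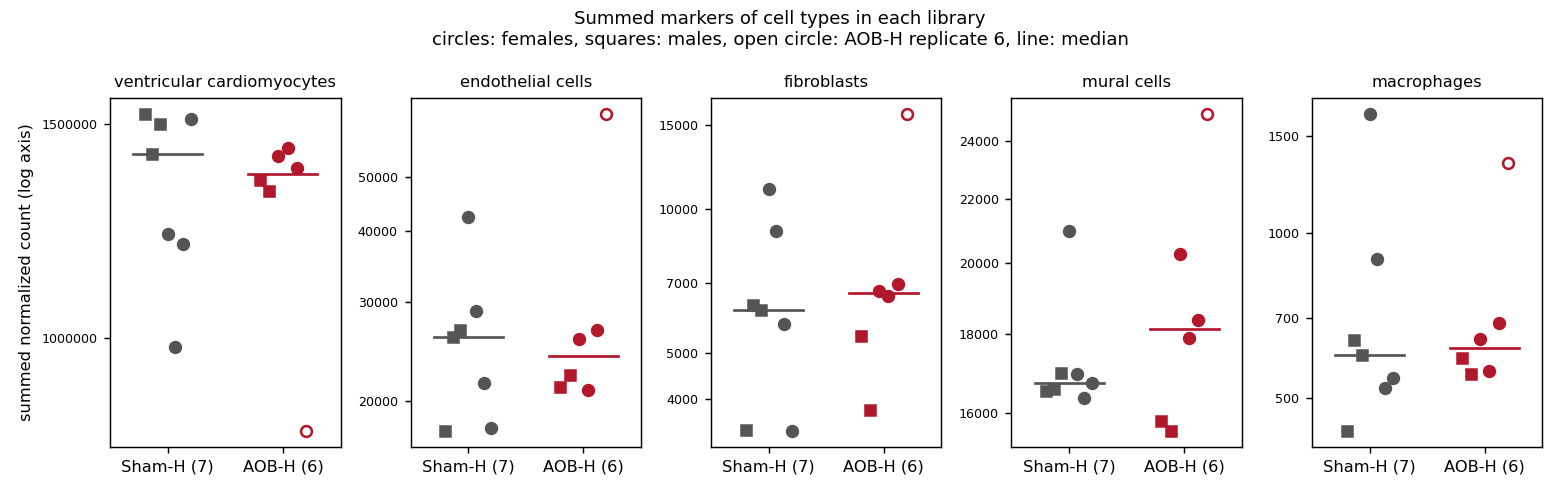
Summed normalized counts of marker genes (log axis) in each of the 7 Sham-H and 6 AOB-H left ventricular libraries for 5 cell types, with circles for females, squares for males, an open circle for AOB-H replicate 6 and a line at the median. Replicate 6 is the lowest for ventricular cardiomyocytes (838958) and the highest for endothelial cells (64503) and fibroblasts (15832).

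Few genes of the aortic-banded LV met the criteria of the study at this stage, and their number depended on the tool and the libraries. A gene met the criteria when its log2 fold change was above 1 or below -1, its unadjusted p did not exceed 0.01 and its normalized count averaged more than 50 in LV AOB-H. The study set these limits on DESeq2 results with shrunken fold changes. Of 11954 genes tested with edgeR's quasi-likelihood test, 25 met them (0.209%), against 10 by DESeq2 with shrunken fold changes. All 25 were higher in LV AOB-H, and 0 were lower. After Benjamini-Hochberg adjustment of the edgeR p-values 2 genes had an adjusted p under 0.05 (0.0167%), *Ccdc82*, which was higher, and *Tub*, which was lower. By DESeq2 with and without shrinkage, 33 and 32 genes had one. At an unadjusted p of at most 0.01, 496 genes were higher (4.15%) and 324 lower (2.71%). In either direction, 2387 of the 11954 genes had an unadjusted p under 0.05, and counts of list genes at that threshold are to be read beside this number. Without LV AOB-H replicate 6, 8 genes met the criteria, 6 higher (0.0499%) and 2 lower (0.0166%), and no adjusted p was under 0.05 (0 genes, edgeR), with 1648 genes at an unadjusted p under 0.05. At an unadjusted p of at most 0.01, 195 genes were then higher (1.62%) and 136 lower (1.13%), and 152 and 92 of these had the same direction at that threshold with all libraries. With 5 LV AOB-H against 4 LV Sham-H libraries, 1 gene met the criteria (0.00828%), *Tceal7*, 18 genes were higher (0.149%) and 23 lower (0.19%) at an unadjusted p of at most 0.01, and 0 genes had an adjusted p under 0.05, with 333 at an unadjusted p under 0.05.

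Other libraries moved these counts too. The number of genes meeting the criteria was 47, 52, 38 and 38 without LV AOB-H replicates 1, 3, 4 and 5, and 45, 61, 42 and 45 without LV Sham-H replicates 1, 2, 3 and 7. The number with an adjusted p under 0.05 was 26, 199 and 14 without LV Sham-H replicates 1, 2 and 7, 3 without LV AOB-H replicate 4, and 0 or 1 without any other library. The 820 genes at an unadjusted p of at most 0.01 became 334 without LV Sham-H replicate 4 and 491 without replicate 5.

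Of the 10 genes of the list of natriuretic peptides and the fetal program, the atrial natriuretic peptide gene *Nppa* had the highest fold change. Its normalized counts were 1943, 3517 and 13506 (lowest, median and highest) in LV AOB-H and 790.4, 1527 and 3899 in LV Sham-H. The lowest LV AOB-H library was replicate 6 and the highest replicate 2, a male. The groups overlapped, with 3 of 6 LV AOB-H libraries above all sham libraries. Its log2 fold change was 1.38 ± 0.56 (SE) and missed the threshold (unadjusted p = 0.0158, adjusted p = 0.167, edgeR). Without replicate 6 it was 1.55 ± 0.58 and *Nppa* met the criteria (unadjusted p = 0.00875, adjusted p = 0.327, edgeR), and in 5 against 4 libraries it was 1.59 (unadjusted p = 0.0243, edgeR).

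*Nppb*, the brain natriuretic peptide gene, gave no such difference. It was at 4119, 6705 and 9596 normalized counts in LV AOB-H and at 4437, 6245 and 12602 in LV Sham-H, with a log2 fold change of 0.00 ± 0.24, or 0.12 ± 0.25 without replicate 6. *Acta1* was at 6807, 9529 and 23260 against 5585, 13106 and 27165, with a log2 fold change of -0.05 ± 0.38, or 0.05 ± 0.40 without replicate 6. The libraries of both groups also overlapped for the slow and fast myosin heavy chains. *Myh7* was at 53728, 88402 and 263769 against 43855, 81561 and 153857 normalized counts, with a log2 fold change of 0.53 ± 0.33 (unadjusted p = 0.115, edgeR), and only replicate 2 was above all sham libraries. Without replicate 6, its lowest library, *Myh7* was at 0.68 ± 0.34 (unadjusted p = 0.0471, edgeR), and in 5 against 4 libraries at 0.31 (unadjusted p = 0.425). The log2 fold change of *Myh6*, the fast chain of the adult rodent ventricle, was 0.00 ± 0.28. That of *Atp2a2*, the calcium pump of the sarcoplasmic reticulum, was -0.02 ± 0.18, and that of *Pln*, its inhibitor, -0.04 ± 0.16. Without replicate 6 these 3 were 0.09 ± 0.30, 0.12 ± 0.19 and 0.11 ± 0.16.

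The 20 tested genes of the stretch-responsive and cytoskeleton list were divided, with 11 above and 9 below 0 and a median log2 fold change of 0.02. In *Xirp2* and *Ankrd1*, 5 of 6 banded animals lay above the sham median. *Xirp2*, which encodes an actin-binding protein of the intercalated disc, had 6742, 12760 and 20522 normalized counts in LV AOB-H and 1326, 6758 and 12448 in LV Sham-H. Its lowest sham values were those of replicates 4 and 5, at 1328 and 1326, and replicate 6 of LV AOB-H was the lowest banded library. Its log2 fold change was 0.996 ± 0.36 (unadjusted p = 0.00752, adjusted p = 0.137, edgeR) and 1.13 ± 0.38 without replicate 6 (unadjusted p = 0.00361), but 0.52 in 5 against 4 libraries (unadjusted p = 0.171). *Ankrd1*, the cardiac ankyrin repeat protein of the titin-based stretch sensor, had 17948, 31743 and 59199 against 11178, 21907 and 37908 normalized counts. Its log2 fold change was 0.54 ± 0.24 (unadjusted p = 0.0263, edgeR), 0.68 ± 0.24 without replicate 6 (unadjusted p = 0.00648) and 0.31 in 5 against 4 libraries (unadjusted p = 0.233). Of the 20 genes of the list, 1 was higher at an unadjusted p of at most 0.01 (*Xirp2*), against 4.15% of all genes, and 2 without replicate 6 (*Xirp2* and *Ankrd1*), against 1.62%. Of 20 sarcomere genes 0 had, by edgeR, in either fit, with 2 at an unadjusted p under 0.05 in both.

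Of 5 genes of growth and matrix signalling named in any case, 0 had an unadjusted p of at most 0.01 by edgeR and 1 had one under 0.05. The log2 fold change was 0.80 ± 0.39 for *Tgfb2*, a transforming growth factor (unadjusted p = 0.0445, edgeR), 0.12 ± 0.27 for the matricellular gene *Ctgf*, 0.01 ± 0.36 for collagen *Col1a1*, -0.17 ± 0.19 for the calcineurin regulator *Rcan1* and 0.38 ± 0.33 for *Penk*, the precursor of enkephalin peptides. *Tgfb2* was at 149.5, 237 and 462.7 normalized counts in LV AOB-H, with its highest value in replicate 6, and at 101.4, 148.7 and 224.6 in LV Sham-H. Without replicate 6, *Tgfb2* was at 0.61 ± 0.41 (unadjusted p = 0.136, edgeR), *Ctgf* at -0.01 ± 0.29, *Col1a1* at -0.38 ± 0.37, *Rcan1* at -0.08 ± 0.20 and *Penk* at 0.54 ± 0.35. *Col1a1* ranged from 699.4 to 3697 in LV AOB-H, again with the highest value in replicate 6, and from 764.7 to 3398 in LV Sham-H. Of 30 collagen and matrix genes tested, 0 had an unadjusted p of at most 0.01 by edgeR and 2 were higher at one under 0.05, and their median log2 fold change was 0.10 with all libraries, -0.18 without replicate 6 and 0.21 in 5 against 4 libraries, where the medians of all genes were 0.01, -0.02 and 0.00. Without replicate 6, 1 was lower at an unadjusted p of at most 0.01, against 1.13% of all genes. This was *Fmod*, the small matrix proteoglycan fibromodulin, named after its values were seen. Its normalized counts were 15.5, 22.8 and 194.8 in LV AOB-H and 33.8, 53.4 and 113.9 in LV Sham-H. Replicate 6 lay above all sham libraries and the other 5 banded libraries below them. The log2 fold change of *Fmod* was -0.31 ± 0.41 with all libraries (unadjusted p = 0.457, edgeR), -1.43 ± 0.40 without replicate 6 (unadjusted p = 0.000545) and -1.08 in 5 against 4 libraries (unadjusted p = 0.0152).

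**Figure D2:**
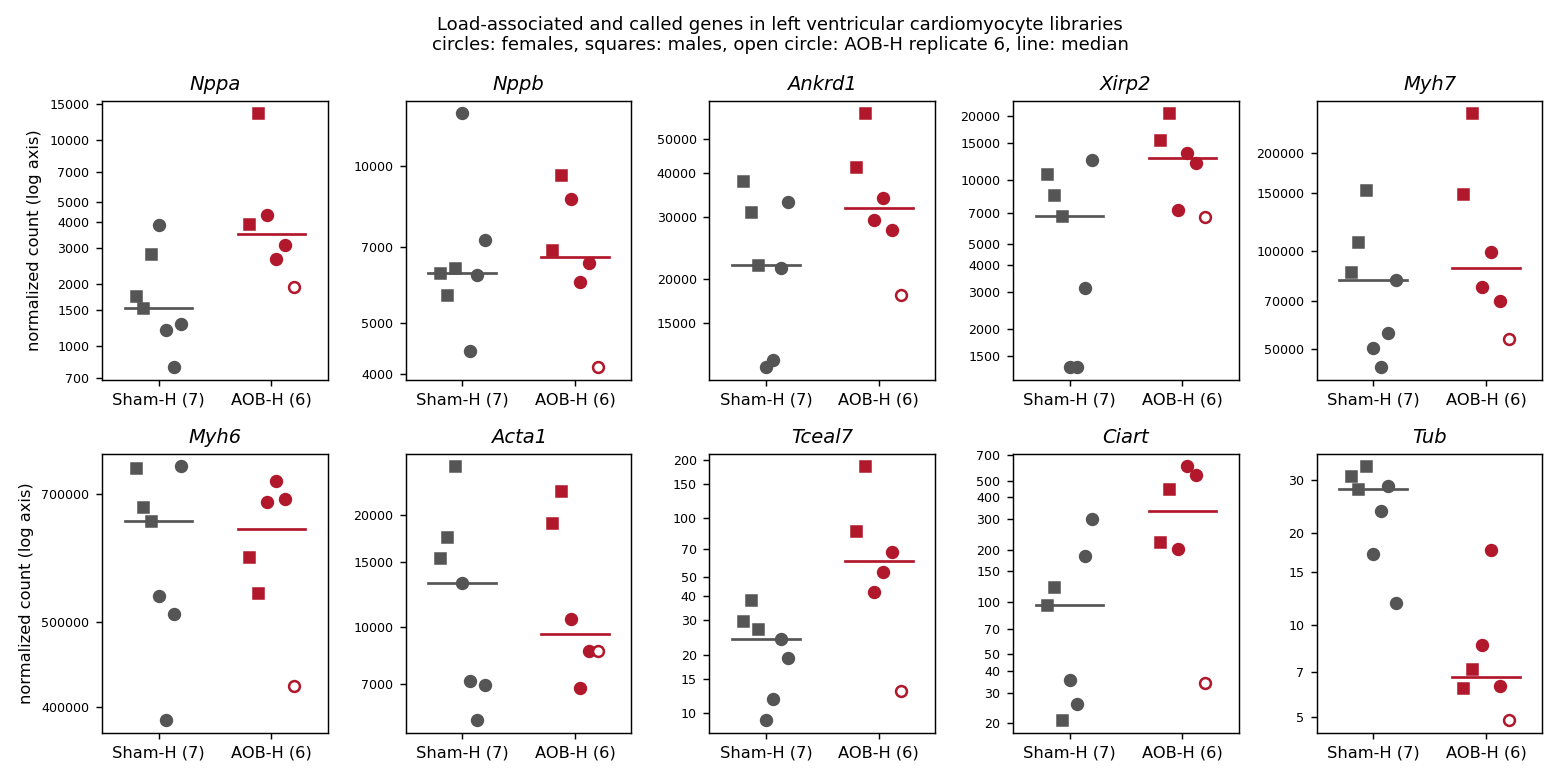
Normalized counts (log axis) of 10 genes in the 7 Sham-H and 6 AOB-H left ventricular libraries, with circles for females, squares for males, an open circle for AOB-H replicate 6 and a line at the median. In the *Nppa* panel 3 of the 6 AOB-H libraries lie above all sham libraries, in the *Tceal7* panel 5, and in the *Tub* panel 5 lie below all sham libraries.

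*Tceal7*, an X-linked gene of the transcription elongation factor A-like family, had the largest fold change among the genes that met the criteria, 1.74 ± 0.47 on the log2 scale (unadjusted p = 0.000438, adjusted p = 0.0983, edgeR). It had 12.99, 60.2 and 185.3 normalized counts in LV AOB-H and 9.22, 24.2 and 38.01 in LV Sham-H. Replicate 6 was the lowest LV AOB-H library and the other 5 lay above all sham libraries. Without replicate 6 the log2 fold change was 1.96 ± 0.47 (unadjusted p = 9.18e-05, adjusted p = 0.327), in 5 against 4 libraries 1.61 (unadjusted p = 0.00508). Within females and within males it was 1.49 ± 0.60 and 2.09 ± 0.70.

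*Ccdc82*, which encodes a coiled-coil domain protein, had the smallest p of all genes. Its normalized counts were 52.6, 66.2 and 144.5 in LV AOB-H and 7.24, 30.1 and 50.9 in LV Sham-H, and the groups did not overlap. Of all genes tested, 0.176% had LV AOB-H libraries that all lay above the sham libraries. The log2 fold change was 1.45 ± 0.29 (unadjusted p = 3.68e-06, adjusted p = 0.0382, edgeR), 1.19 ± 0.29 without replicate 6 (unadjusted p = 0.00011, adjusted p = 0.327) and 0.74 in 5 against 4 libraries (unadjusted p = 0.0164). Its lowest sham values, 7.24 and 11.1, were in replicates 4 and 5. *Gnai1*, an inhibitory G protein alpha subunit, had 69.6, 94.0 and 199.7 against 17.1, 38.5 and 80.5 normalized counts, with replicate 6 the highest. Its log2 fold change was 1.32 ± 0.32 (adjusted p = 0.0912, edgeR), 1.05 ± 0.32 without replicate 6 and 0.62 in 5 against 4 libraries (unadjusted p = 0.0865).

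*Tub*, a gene of the tubby family, was the other gene with an adjusted p under 0.05. It was low in every library, at 4.87, 6.75 and 17.6 normalized counts in LV AOB-H and at 11.9, 27.9 and 33.2 in LV Sham-H, so the minimum mean of the criteria left it out. All banded libraries but replicate 4 lay below all sham libraries. The log2 fold change was -1.52 ± 0.31 (unadjusted p = 6.39e-06, adjusted p = 0.0382, edgeR), -1.42 ± 0.33 without replicate 6 and -1.496 in 5 against 4 libraries (unadjusted p = 0.000112). It was -1.09 ± 0.39 within females and -2.18 ± 0.53 within males.

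The other 22 genes that met the criteria with all libraries did not meet them without replicate 6. Replicate 6 had the highest value of the 6 LV AOB-H libraries for 24 of the 25, *Tceal7* being the exception, and the lowest sham value was in replicate 4, 5 or 6 for 24 of the 25. Their log2 fold changes ran from 1.01 to 1.74, with a median of 1.18, and from 0.46 to 1.96 without replicate 6. All 25 stayed above 0, 7 kept an unadjusted p of at most 0.01 and 3 met the criteria. In 5 against 4 libraries all 25 were above 0, with a median of 0.46, and 1 had an unadjusted p of at most 0.01. The 25 were selected for their difference in these same libraries, so their direction in a subset is no separate evidence. In 4 of the 25 genes the groups did not overlap, *Ccdc82*, *Ccdc125*, *Ifit2* and *Enpep*. Of all genes tested, 0.176% had LV AOB-H libraries that all lay above the sham libraries, but selecting the 25 by their difference favours such genes. The median transcript length of the 25 was 3.41 kb, against 2.17 kb for all genes tested.

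By function, the 22 fell into a few kinds. *Mki67*, *Top2a*, *Cenpf* and *Diaph3* are genes of dividing cells, and their log2 fold changes of 1.24 ± 0.44, 1.13 ± 0.42, 1.65 ± 0.52 and 1.45 ± 0.43 were 0.83, 0.67, 1.06 and 0.60 without replicate 6. *Mki67* was at 54.4, 111.8 and 279.2 normalized counts against 18.5, 54.3 and 93.9 in sham. *Ifit2*, *Rsad2* and *Slfn3* are induced by interferon, and *Casp4* is an inflammatory caspase. *Abcb1a*, a drug efflux pump, *Enpep*, the aminopeptidase that cleaves angiotensin II, *Gimap8* and *Lpar6*, a lysophosphatidic acid receptor, are known from endothelial, immune or mural cells as well as other cells, and had log2 fold changes of 1.18, 1.10, 1.15 and 1.04, against 0.77, 0.79, 0.69 and 0.64 without replicate 6. *Cald1* and *Fnbp1l* act on the actin cytoskeleton and membrane curvature, *Sema3d* is a secreted guidance cue, *Cep290* belongs to the primary cilium and *Pnn* to nuclear speckles. *Ccdc125* had 56.5, 63.8 and 246.8 normalized counts against 13.2, 41.2 and 56.1, with a log2 fold change of 1.23 ± 0.28 (adjusted p = 0.0912, edgeR), 0.67 ± 0.25 without replicate 6 and 0.68 in 5 against 4 libraries (unadjusted p = 0.016). The remaining genes were *Klhl4*, *Nxpe1*, *Zfp40* and LOC680200. The part of the marker sums of replicate 6 in these values was not tested.

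**Figure D3:**
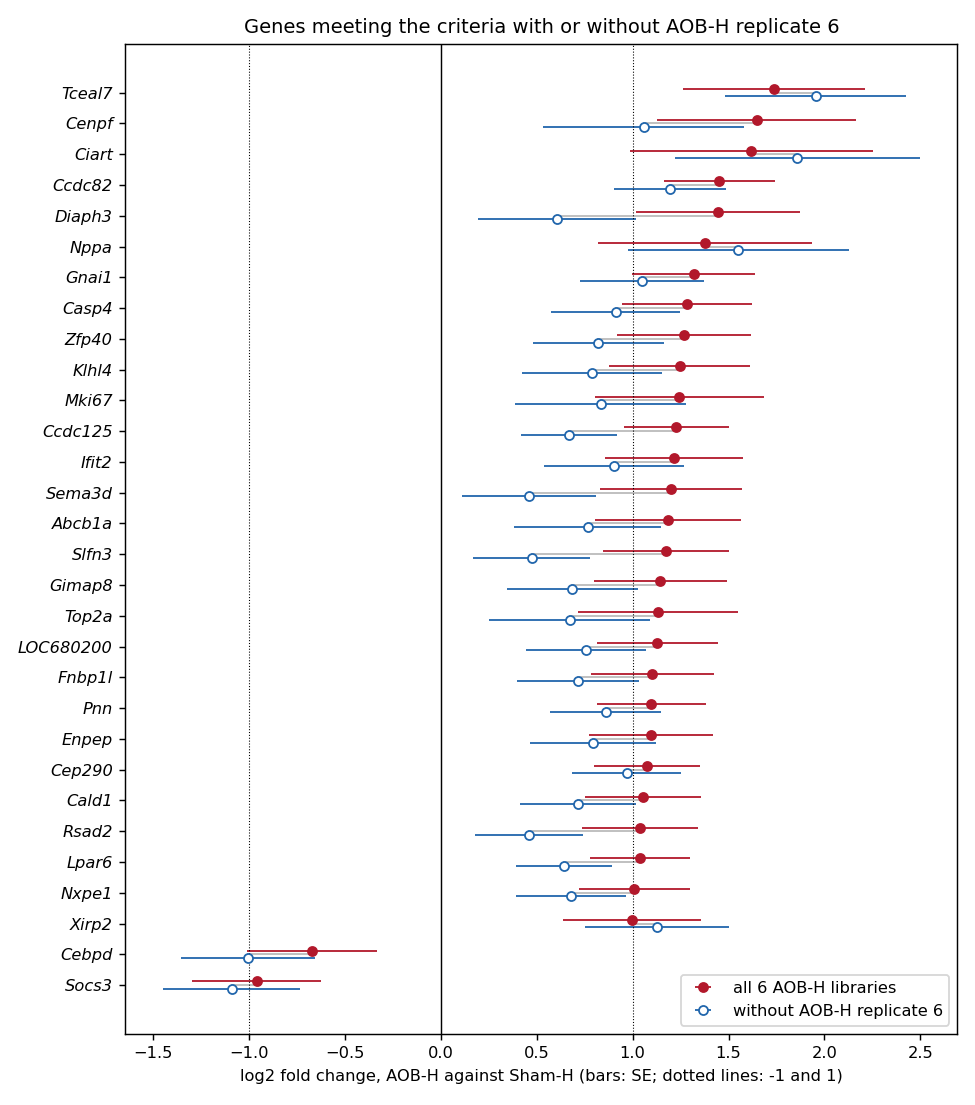
Log2 fold changes (with SE) of LV AOB-H against LV Sham-H for the 30 genes that met the criteria with all 6 AOB-H libraries (filled) or without replicate 6 (open), with dotted lines at -1 and 1. Without replicate 6 the fold changes of *Tceal7*, *Nppa*, *Xirp2* and *Ciart* are larger and those of the other 24 higher genes are smaller.

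Besides *Nppa* and *Xirp2*, 3 genes met the criteria only without replicate 6. *Ciart*, a repressor of the circadian clock, had 34.1, 333.5 and 603.7 normalized counts in LV AOB-H, the lowest being replicate 6, and 20.8, 95.5 and 299.3 in LV Sham-H. Its log2 fold change was 1.62 ± 0.63 with all libraries and 1.86 ± 0.64 without replicate 6 (unadjusted p = 0.00475, edgeR). In the RV of the same animals, which the clip does not load directly, it was 1.78 ± 0.63 (unadjusted p = 0.00625, adjusted p = 1, edgeR). The difference between the ventricles was -0.17 ± 0.89, or -0.17 ± 0.30 in a fit with the animal as a block. *Socs3*, the feedback inhibitor of cytokine signalling through JAK and STAT, was lower, at 260.3, 424.2 and 642.9 against 264.9, 755.3 and 1750 normalized counts, with a log2 fold change of -0.96 ± 0.34 and of -1.09 ± 0.36 without replicate 6. *Cebpd*, an acute-phase transcription factor, was at 75.3, 125.7 and 308.5 against 81.4, 164.9 and 576.1, with its highest values in replicate 6 and in sham replicate 4, and its log2 fold change was -0.67 ± 0.34 and -1.01 ± 0.35 without replicate 6. In 5 against 4 libraries *Socs3* was at -0.96 (unadjusted p = 0.0191) and *Cebpd* at -0.38 (unadjusted p = 0.302).

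Among genes with a mean normalized count over 50 in LV Sham-H, the 10 with the smallest p that were lower in LV AOB-H were *Plekhf1*, *Elmod3*, *Ctsh*, *Tmem177*, *Sema4d*, *Rtn4rl1*, *Laptm4b*, *Klhl26*, *Eno1* and *Srebf1*, with adjusted p-values of 0.0912 to 0.0983 (edgeR) and log2 fold changes of -0.33 to -0.66. All 10 kept an unadjusted p of at most 0.01 without replicate 6. In 5 against 4 libraries *Plekhf1*, *Sema4d*, *Rtn4rl1*, *Laptm4b* and *Klhl26* did as well. *Plekhf1*, which encodes a protein of endosomes and lysosomes, had 456.2, 649.7 and 701.4 normalized counts in LV AOB-H and 823, 945.4 and 1217 in LV Sham-H, with no overlap. Its log2 fold change was -0.66 ± 0.15, and -0.58 ± 0.16 without replicate 6. *Sema4d*, a membrane-bound semaphorin, had 691.6, 984.9 and 1085 against 1125, 1182 and 1624, also with no overlap, and a log2 fold change of -0.39 ± 0.10. *Rtn4rl1*, a Nogo receptor homologue, and *Elmod3* did not overlap either. Of all genes, 0.284% had LV AOB-H libraries that all lay below the sham libraries. *Ctsh* and *Laptm4b* are lysosomal, *Tmem177* serves the assembly of cytochrome c oxidase, *Srebf1* is a transcription factor of lipid synthesis and *Eno1* a glycolytic enzyme.

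Interferon-stimulated genes were the list with the largest share of higher genes. They are transcribed after interferon or viral RNA activates STAT and IRF factors, which bind a shared element in their promoters. Of 36 tested, 11 had an unadjusted p of at most 0.01 and were higher, against 4.15% of all genes, and 0 were lower. Their median log2 fold change was 0.37. Without replicate 6, 2 of 36 were (*Ifih1* and *Parp9*, against 1.62% of all genes), with a median of 0.16, and in 5 against 4 libraries 1 was, with a median of 0.32. *Ifit2*, a protein that binds viral RNA, had 439, 517.5 and 1257 normalized counts in LV AOB-H, with no overlap with the 153.4, 275.4 and 410 in LV Sham-H. Its log2 fold change was 1.22 ± 0.36 (adjusted p = 0.0983, edgeR), 0.90 ± 0.37 without replicate 6 (unadjusted p = 0.0163) and 0.53 in 5 against 4 libraries (unadjusted p = 0.209). *Rsad2*, the antiviral enzyme viperin, had 236.5, 280.1 and 1138 against 154.4, 201.6 and 290.7 normalized counts, and 1.04 ± 0.30 became 0.46 ± 0.28 without replicate 6. *Ifih1*, a sensor of double-stranded RNA, had 289.5, 324.5 and 712.7 against 134.1, 234.9 and 282.6, with a log2 fold change of 0.83 ± 0.21 and of 0.57 ± 0.21 without replicate 6 (unadjusted p = 0.00854, edgeR). *Parp9*, a partner of the interferon-induced ubiquitin ligase DTX3L, had 346, 432.7 and 1101 against 196.2, 289.3 and 415.9, with 0.84 ± 0.20 and 0.51 ± 0.19 (unadjusted p = 0.00984). The highest LV AOB-H value of each of these 4 genes was in replicate 6, where the macrophage and endothelial marker sums were also the highest of the group. LV Sham-H replicate 4 had the highest sums of these markers in its group, 1641 and 42314. Its normalized counts were 153.4 for *Ifit2*, 208.7 for *Rsad2*, 181.1 for *Ifih1* and 196.2 for *Parp9*. The median level of the whole list, relative to the means over the 13 libraries, was 0.325 in this library on the log2 scale. It was -0.623 to 0.198 in the other sham libraries and 1.269 in LV AOB-H replicate 6. Sham replicate 4 also had the lowest level of long relative to short genes (-0.471), and these 4 genes are longer than the median gene tested. The part of other cells in these values was not tested.

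The 250 bases before the RefSeq start of the genes (build GRCr8) are shown for 4 of the 11 higher interferon-stimulated genes, to let the shared element be seen. They are *Rsad2* (chr6:48788121-48788370, minus strand), *Ifih1* (chr3:67683969-67684218, minus strand), *Ifi44* (chr2:243303841-243304090, minus strand) and *Parp9* (chr11:78319012-78319261, minus strand), written 5′ to 3′ on the strand of the gene. Capitals mark GAAA, any 2 bases and GAAA again, or the reverse complement (TTTC, any 2 bases and TTTC), the core of the interferon-stimulated response element.
Rsad2: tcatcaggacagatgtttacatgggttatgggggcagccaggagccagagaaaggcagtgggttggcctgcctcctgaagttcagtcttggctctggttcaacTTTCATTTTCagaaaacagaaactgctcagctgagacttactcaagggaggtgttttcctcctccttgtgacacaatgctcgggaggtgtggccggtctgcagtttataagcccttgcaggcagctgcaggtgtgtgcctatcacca
Ifih1: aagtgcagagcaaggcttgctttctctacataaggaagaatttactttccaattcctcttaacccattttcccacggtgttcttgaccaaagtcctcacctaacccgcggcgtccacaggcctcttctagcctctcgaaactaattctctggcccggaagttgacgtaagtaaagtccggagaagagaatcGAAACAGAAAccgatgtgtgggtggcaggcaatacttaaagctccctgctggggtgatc
Ifi44: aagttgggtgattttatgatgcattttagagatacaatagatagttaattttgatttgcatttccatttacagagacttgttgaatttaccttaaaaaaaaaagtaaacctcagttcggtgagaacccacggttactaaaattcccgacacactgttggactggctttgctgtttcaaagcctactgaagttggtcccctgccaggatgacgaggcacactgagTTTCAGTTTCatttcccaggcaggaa
Parp9: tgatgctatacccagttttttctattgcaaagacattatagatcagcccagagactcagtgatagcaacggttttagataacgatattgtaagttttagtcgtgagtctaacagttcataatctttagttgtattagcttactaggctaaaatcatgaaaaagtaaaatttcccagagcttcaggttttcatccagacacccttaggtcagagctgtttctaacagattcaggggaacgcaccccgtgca
The element began 147 bases before the start of *Rsad2*, 59 before that of *Ifih1* and 26 before that of *Ifi44*, and these letters were not in the window of *Parp9*. Of the 9 higher interferon-stimulated genes found in the promoter table, 7 held it (77.8%), and of the 17 tested genes of the list with a larger p, 8 did (47.1%). The difference between these shares was not tested. The list was made of interferon-stimulated genes, so the element in their promoters does not show that they responded here. Of all 27457 promoters of this length 3.29% held it, and of the 9000 of genes tested 2.57%. Of the 22 genes that met the criteria and were in the table, 1 held it (*Rsad2*).

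With all libraries, genes of glucose use and oxidative phosphorylation tended to lower values, to a degree that depended on the libraries included. Of 24 genes of glucose use, 6 were lower at an unadjusted p of at most 0.01 (*Gapdh*, *Eno1*, *Pkm*, *Gpi*, *Gys1* and *Pygm*) and 0 higher, against 2.71% and 4.15% of all genes, with a median log2 fold change of -0.21. Without replicate 6, 1 was lower (*Eno1*), against 1.13% of all genes, with a median of -0.08, and in 5 against 4 libraries 0 were by edgeR (2 at an unadjusted p under 0.05), with a median of -0.11. *Eno1* had 5526, 9729 and 10773 normalized counts in LV AOB-H and 10391, 11081 and 19354 in LV Sham-H, and a log2 fold change of -0.47 ± 0.12 that was -0.35 ± 0.12 without replicate 6, its lowest library, and -0.27 in 5 against 4 libraries (unadjusted p = 0.0364). *Gapdh* ranged from 32915 in replicate 6 to 71044 in LV AOB-H and from 63895 to 134790 in LV Sham-H. Of 68 subunits of oxidative phosphorylation, 7 were lower (*Ndufa12*, *Ndufb6*, *Ndufb11*, *Ndufc2*, *Ndufs8*, *Sdhc* and *Atp5d*) and 0 higher, with a median of -0.25. At an unadjusted p under 0.05, 22 were lower, against 2387 of all 11954 genes in either direction. Without replicate 6, 0 had an unadjusted p of at most 0.01 by edgeR, and 4 were lower and 2 higher at one under 0.05, with a median of -0.09, and in 5 against 4 libraries 4 were higher and 0 lower at one under 0.05, with a median of 0.03. Of 26 genes of fatty acid oxidation 0 passed in any of these fits by edgeR, with 1 higher and 3 lower at an unadjusted p under 0.05 with all libraries, and medians of -0.07, 0.04 and -0.09. The median level of the oxidative phosphorylation subunits was taken relative to their means over the 13 libraries, on the log2 scale. It was -1.129 in LV AOB-H replicate 6 and -0.027 to 0.147 in the other LV AOB-H libraries. In LV Sham-H replicates 4 to 6 it was 0.195 to 0.445, and in the other sham libraries -0.132 to 0.149. The cardiomyocyte marker sum of replicate 6 was 0.607 times the median of the other 5 libraries, and its part in these values was not tested.

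The lists of early and stress responses held a few genes that were lower at an unadjusted p of at most 0.01 with and without replicate 6, but that had a larger p in 5 against 4 libraries. Of 28 immediate early genes, 24 had a log2 fold change below 0, 2 were lower at an unadjusted p of at most 0.01 (*Fos* and *Ier3*), against 2.71% of all genes, and 0 higher, with a median of -0.33. Without replicate 6, 1 was lower (*Fos*), against 1.13% of all genes, with a median of -0.36, and in 5 against 4 libraries the median was -0.07. *Fos*, a subunit of the transcription factor AP-1, had 4050, 5977 and 7043 normalized counts in LV AOB-H and 4831, 7535 and 11284 in LV Sham-H, with a log2 fold change of -0.46 ± 0.17 (-0.51 ± 0.18 without replicate 6 and -0.30 in 5 against 4 libraries, unadjusted p = 0.127). *Ddit4*, an inhibitor of mTORC1 signalling, had 220.4, 418.9 and 488.7 against 325.4, 625.3 and 1385, with -0.89 ± 0.33 (-0.96 ± 0.35 without replicate 6 and -0.55 in 5 against 4 libraries, unadjusted p = 0.136). Of 34 growth factors and receptors, *Tgfbr1*, the type I receptor for transforming growth factor beta, was higher by 0.63 ± 0.16 on the log2 scale (0.48 ± 0.16 without replicate 6, 0.12 in 5 against 4 libraries) and *Cyr61*, a matricellular protein, was lower at -0.46 ± 0.17 (-0.51 ± 0.18 and -0.28). *Tnni1*, the slow skeletal troponin I of the fetal heart, was lower, at 1.20, 2.80 and 9.49 against 5.20, 12.3 and 22.4 normalized counts, with a log2 fold change of -1.35 ± 0.41 (-1.28 ± 0.43 without replicate 6, -0.56 in 5 against 4 libraries, unadjusted p = 0.267).

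Among the protein synthesis and turnover genes, *Rplp1*, a ribosomal stalk protein, was lower at -0.61 ± 0.20 (-0.57 ± 0.22 without replicate 6 and -0.16 in 5 against 4 libraries) and *Psmb4*, a proteasome subunit, at -0.44 ± 0.13 (-0.37 ± 0.13 and -0.28). In all, 4 of 77 cytosolic ribosomal proteins, 2 of 63 mitochondrial ribosomal proteins and 3 of 37 proteasome subunits were lower at an unadjusted p of at most 0.01, against 2.71% of all genes, and 0 higher. Without replicate 6, 1, 0 and 1 were lower, and 1 cytosolic ribosomal protein was higher. The median of the cytosolic ribosomal proteins was -0.12 with all libraries, -0.06 without replicate 6 and 0.13 in 5 against 4 libraries. In that last set 7 were higher and 0 lower at an unadjusted p under 0.05, against 333 of all 12077 genes in either direction. Of 25 cell cycle genes 2 were higher with all libraries (*Mki67* and *Top2a*), against 4.15% of all genes. Without replicate 6 these had an unadjusted p of 0.0665 and 0.115 (edgeR). Another gene, *Ccne1*, was then the 1 higher, against 1.62% of all genes. It was named after its values were seen, and its counts were low, with medians of 20.1 in LV AOB-H and 8.56 in LV Sham-H. The log2 fold change of *Ccne1* was 0.91 with all libraries (unadjusted p = 0.0118, edgeR). Without replicate 6 it was 0.996 (unadjusted p = 0.00821), and in 5 against 4 libraries 1.41 (unadjusted p = 0.00228). Of 15 clock genes 0 passed by edgeR with all libraries, with 2 higher and 1 lower at an unadjusted p under 0.05, and 2 were higher at one of at most 0.01 without replicate 6. Ion channels and pumps (29 genes tested) gave 0 in either direction by edgeR in all 3 fits, with 1 higher and 2 lower at an unadjusted p under 0.05 with all libraries, and 23 of 29 were below 0 (median -0.15). In each of the other 7 lists at most 2 genes passed in either direction with all libraries, against 4.15% of all genes higher and 2.71% lower. Lower were 2 of 20 genes of adrenergic and cyclic nucleotide signalling (*Adra1b* and *Adcy5*) and 2 of 24 cardiac transcription and splicing factors (*Nkx2-5* and *Irx4*). Without replicate 6 these genes had an unadjusted p of 0.0357 to 0.0769 (edgeR).

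**Figure D4:**
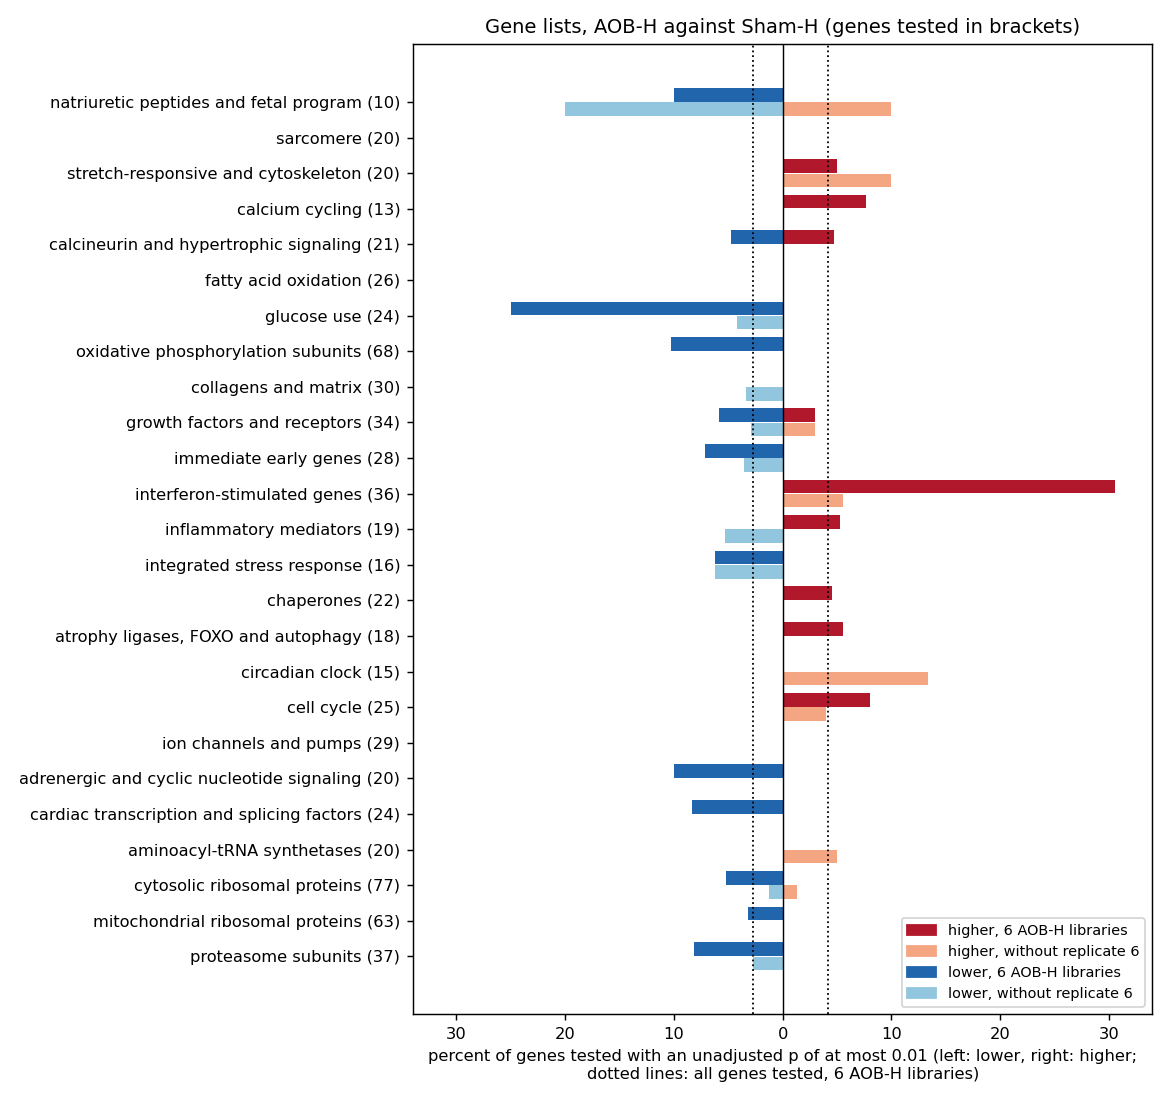
Percent of the genes tested in each list with an unadjusted p of at most 0.01 in LV AOB-H compared with LV Sham-H, with higher genes to the right and lower genes to the left, for all 6 AOB-H libraries (dark) and without replicate 6 (light). Dotted lines mark the share of all genes with all 6 AOB-H libraries (4.15% higher, 2.71% lower) and belong to the dark bars. For the light bars the shares were 1.62% and 1.13%. The longest bars are interferon-stimulated genes (11 of 36 higher) and glucose use (6 of 24 lower), which are 2 and 1 without replicate 6.

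The RV of the same banded animals, which the clip does not load directly, was compared with RV Sham-H. It gave 16 genes at an unadjusted p of at most 0.01 (0.134%) and 0 with an adjusted p under 0.05 by edgeR, with 171 at an unadjusted p under 0.05. Of the 25 genes that met the criteria in the LV, 22 were above 0 in the RV, with a median log2 fold change of 0.22. The median of all genes in the RV was 0.007. Of the 25, 0 were higher at an unadjusted p of at most 0.01 by edgeR, against 0.0753% of all genes. The RV library of animal 6, which had the highest endothelial marker sum of RV AOB-H (35601), was kept in every fit. Its deviations correlated with those of the LV library of that animal (r = 0.617). Both comparisons of the RV, here and with pulmonary banding, use the RV Sham-H libraries, and each test of a difference reuses the LV AOB-H and LV Sham-H libraries. Among the 62 named genes, *Ciart* and *Penk* had an unadjusted p of at most 0.01 in the RV. *Penk* was at 1.29 ± 0.35 there (unadjusted p = 0.000379, adjusted p = 1, edgeR) and at 0.38 ± 0.33 in the LV, or 0.86 in 5 against 4 libraries (unadjusted p = 0.0382). The difference between the ventricles was -0.91 ± 0.48 for *Penk* (unadjusted p = 0.0636, edgeR), or -0.60 with the animal as a block (unadjusted p = 0.186). In the test of the difference between the responses of the ventricles, 0 genes had an adjusted p under 0.05, 577 had an unadjusted p under 0.05 and 50 one of at most 0.01 (0.418%), or 178 with the animal as a block. *Ccdc82* had the difference 1.63 ± 0.41 (unadjusted p = 0.000175, adjusted p = 0.774, edgeR), being -0.18 ± 0.29 in the RV. With the animal as a block the difference was 1.75 ± 0.47 (unadjusted p = 0.00169, adjusted p = 0.434, edgeR). *Nppa* had 0.81 ± 0.57 in the RV and a difference of 0.57 ± 0.80, or 0.51 ± 0.43 with the animal as a block.

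At the failing stage, LV AOB-F against LV Sham-F, 1541 genes had an adjusted p under 0.05 (12.9%). That comparison has its own sham libraries. *Nppa* was then at 1.95 ± 0.51 (adjusted p = 0.00661, edgeR), *Ankrd1* at 0.89 ± 0.21 (adjusted p = 0.00375), *Xirp2* at 1.17 ± 0.33 (adjusted p = 0.0123), *Tgfb2* at 2.04 ± 0.35 (adjusted p = 7.06e-05) and *Ctgf* at 1.07 ± 0.25 (adjusted p = 0.0025), whereas *Tceal7* was at 1.04 ± 0.42 (adjusted p = 0.083), *Ccdc82* at 0.52 ± 0.28 and *Tub* at -0.32 ± 0.26. In the test of the difference between the stages no adjusted p was under 0.05 (0 genes, edgeR), 1148 had an unadjusted p under 0.05, 302 were more positive in failure at an unadjusted p of at most 0.01 (2.53%) and 394 passed in all (3.3%). Without replicate 6 of LV AOB-H, 14 genes had an adjusted p under 0.05. Of the 25 lists, the inflammatory mediators had the most distant medians, -0.01 in LV AOB-H (-0.39 without replicate 6) and 1.53 in LV AOB-F, with 1 and 15 of 19 higher at an unadjusted p of at most 0.01, against 4.15% and 10.2% of all genes. The medians of the collagen and matrix genes were 0.10 and 0.53.

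The RV loaded by pulmonary banding at the same stage, RV PAB-H against RV Sham-H, gave 538 genes with an adjusted p under 0.05 (4.5%) and 1162 at an unadjusted p of at most 0.01 (9.72%, 7.91% higher). Of the 25 genes that met the criteria in LV AOB-H, 23 were above 0 in RV PAB-H, with a median of 0.75, and 7 had an unadjusted p of at most 0.01. The median of all genes in RV PAB-H was 0.004. Of the named genes, *Nppa* was at 3.28 ± 0.60, *Nppb* at 1.21 ± 0.24, *Acta1* at 2.01 ± 0.39, *Penk* at 2.23 ± 0.35, *Tceal7* at 2.48 ± 0.50, *Tgfb2* at 1.79 ± 0.40 and *Col1a1* at 1.29 ± 0.36 on the log2 scale, all with an adjusted p of at most 0.0272 (edgeR). In the difference LV AOB-H minus RV PAB-H, *Acta1* was at -2.06 ± 0.55 (unadjusted p = 0.000318, adjusted p = 0.355, edgeR), *Penk* at -1.85 ± 0.48 (unadjusted p = 0.000264), *Nppb* at -1.21 ± 0.34 (unadjusted p = 0.000635) and *Nppa* at -1.90 ± 0.80 (unadjusted p = 0.0194), and *Ccdc82* at 1.22 ± 0.41 (unadjusted p = 0.00384). Over all genes no adjusted p was under 0.05 (0 genes, edgeR), 1304 had an unadjusted p under 0.05 and 243 one of at most 0.01 (2.03%), of which 72 were more positive in the LV. Without replicate 6 of LV AOB-H these 243 became 739.

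**Figure D5:**
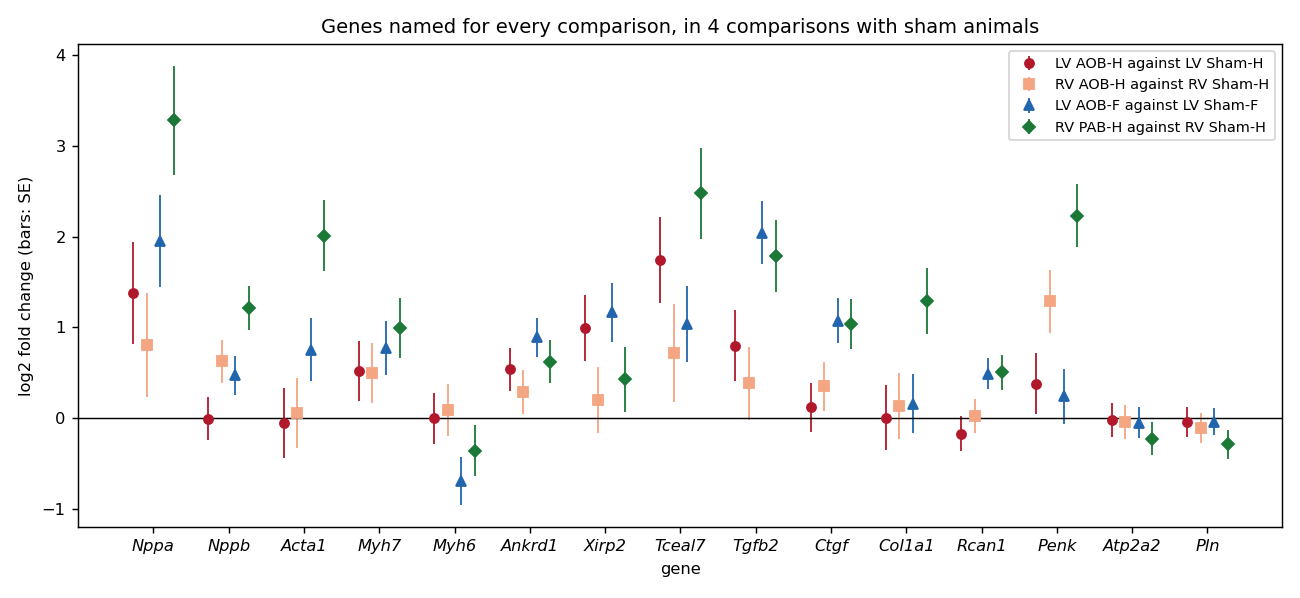
Log2 fold changes with SE of 15 genes against the sham group of the same ventricle and stage in LV AOB-H, in the RV of the same animals, in LV AOB-F and in RV PAB-H. *Nppa* is at 1.38, 0.81, 1.95 and 3.28, and *Nppb* at 0.00, 0.63, 0.47 and 1.21.

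The comparison held fewer males than females, and was also made within each sex. Within females, 1783 genes had an unadjusted p of at most 0.01 (14.4%) and 1308 an adjusted p under 0.05, but without replicate 6 these were 977 and 7. Within males (2 against 3 libraries) 28 genes had an unadjusted p of at most 0.01 (0.225%) and 0 an adjusted p under 0.05 by edgeR, with 250 at an unadjusted p under 0.05. The 4 libraries that stood apart were all female. Of the 25 genes that met the criteria, 25 were above 0 within females (median 1.59, or 1.05 without replicate 6) and 24 within males (median 0.42). These genes were selected in the same libraries, so their direction within a sex is no separate evidence. *Ccdc82* was at 2.17 ± 0.36 within females and 0.60 ± 0.44 within males, a difference of 1.56 ± 0.58 (unadjusted p = 0.00861, adjusted p = 0.535, edgeR). *Nppa* was at 0.74 ± 0.70 within females and 2.10 ± 0.89 within males, a difference of -1.36 ± 1.13 that did not pass (unadjusted p = 0.231, adjusted p = 0.734, edgeR). The male value rests on 2 banded libraries, at 3923 and 13506 normalized counts. In the test of the difference between the sexes no adjusted p was under 0.05 (0 genes, edgeR), with 1082 at an unadjusted p under 0.05 and 225 at one of at most 0.01 (1.81%).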

How the data were processed

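The authors deposited raw counts per gene, DESeq2-normalized counts and FPKM values for 17337 genes in 82 libraries. Per the labels and the study's methods, reads were trimmed with Trim Galore, aligned with STAR to Rnor6.0 and counted with featureCounts, and DESeq2 1.28.1 was run. The deposited FPKM values served only to derive transcript lengths, and the deposited normalized counts, a signal per gene, were not used. Groups followed the sample titles. Tests used edgeR 4.0.16 in R 4.3.3 on the raw counts, as 1 quasi-likelihood fit with 12 group means, TMM factors and filterByExpr (11954 genes), with Benjamini-Hochberg adjustment over these genes. DESeq2 1.42.0 served as an alternative. Named genes were those meeting the criteria with or without replicate 6, the 10 lower genes with the smallest p, list members with an unadjusted p of at most 0.01 in both fits, and 17 genes named in any case. The members, gene lists and tests were chosen with earlier results of these data known. LV and RV libraries of a number come from 1 animal by the labels, and their deviations from the group means correlated with r of 0.11 to 0.617 in AOB-H and 0.0834 to 0.236 in Sham-H. No 2 libraries agreed within sampling noise (chi-square of at least 4.3 per gene). The tests were tested on simulated data. Alternatives were other factors, filters, tools, sample sets, sex as a covariate and blocks.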

Additional observations from a re-analysis of the deposited data

Results flagged for a closer look

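In 80 sets of per-library values (genes, marker sums and library properties in each group), a library lay farther from its group than Dixon's test at the 95% level allows in 29. Chance flags about 1 in 20 of sets that are independent and chosen beforehand. Here the sets share the same libraries, and some genes were named for their values in them, so that rate does not apply. Of the 29, 22 were LV AOB-H replicate 6, which had the highest LV AOB-H value for 24 of the 25 genes that met the criteria. It was low for *Atp2a2* (160907 normalized counts), *Pln* (25052), *Eno1* (5526), *Gapdh* (32915), *Plekhf1* (456.2), the summed ventricular cardiomyocyte markers (838958) and the share of its 50 highest genes (20.4%). It was high for *Ccdc125* (246.8), *Ccdc82* (144.5), *Gnai1* (199.7), *Pnn* (548.7), *Cebpd* (308.5), *Col1a1* (3697), the dividing-cell genes *Mki67* (279.2) and *Top2a* (220.8), and the interferon-stimulated genes *Ifih1* (712.7), *Ifit2* (1257), *Parp9* (1101) and *Rsad2* (1138). It was also high for the summed markers of fibroblasts (15832), endothelial cells (64503) and macrophages (1338). In LV AOB-H replicate 2, a male, *Nppa* was high at 13506, and in replicate 4 *Tub* was high at 17.6. In LV Sham-H replicate 4, *Cebpd* (576.1), *Nppb* (12602) and the summed markers of mural cells (20985) and macrophages (1641) were high, and in sham replicate 2 *Rsad2* (290.7) was. The causes were not tested.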

How the results depend on the processing

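The 25 genes meeting the criteria ranged from 8 to 61 when 1 library was left out, and were 10 by DESeq2 with shrunken fold changes, 1 with an adjusted p in the criteria, 49 with a minimum mean of 10, 243 within females (122 without replicate 6), 2 within males and 1 in 5 against 4 libraries. The 2 genes with an adjusted p under 0.05 ranged from 0 to 199 when 1 library was left out, and were 1 without a filter on low counts, 0 in the fit to the 2 groups and in that to LV libraries, 4 with sex as a covariate, 33 and 32 by DESeq2 with and without shrinkage, 1308 within females (7 without replicate 6), 0 within males and 0 in 5 against 4 libraries. The 820 genes at an unadjusted p of at most 0.01 ranged from 331 to 1149 when 1 library was left out, and were 159 in the fit to the 2 groups, 250 in that to LV libraries, 1783 within females, 28 within males and 41 in 5 against 4 libraries. Blocking by replicate number, which pairs different animals (correlation of deviations -0.215 to 0.232), left 29 genes meeting the criteria, 0 with an adjusted p under 0.05 and 104 at an unadjusted p of at most 0.01. For the difference between the ventricles, the 50 genes at an unadjusted p of at most 0.01 were 84 without a filter and 178 with the replicate block by animal. For the other differences, leaving out LV AOB-H replicate 6 gave 14 genes with an adjusted p under 0.05 for failing minus compensated LV, and 739 in place of 243 at an unadjusted p of at most 0.01 for LV AOB-H minus RV PAB-H. Of 1610 values of 62 named genes, 1361 kept their side of an unadjusted p of 0.01 and their direction, 229 lost it, 11 gained it, 8 changed sign by over 1 SE without passing it, and 1 was reversed (*Klhl4*, -0.011 within males). Splits by sex and the set of 5 against 4 libraries were chosen after seeing the data. The depth of replicate 6 was the lowest, which limits its low counts.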

Other observations

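Transcript length moved with the comparison. Among the 2989 shortest genes tested (up to 1.47 kb) the median log2 fold change of LV AOB-H against LV Sham-H was -0.07, with 47 genes higher and 112 lower at an unadjusted p of at most 0.01, and among the 2990 longest (from 3.31 kb) it was 0.12, with 243 higher and 41 lower. Without replicate 6 the medians were -0.05 and 0.05, and in the RV of the same animals 0.01 and 0.02. The genes higher at that threshold had a median length of 3.30 kb and the lower ones of 1.84 kb, or 2.88 and 1.89 kb without replicate 6. The median level of the 25 genes that met the criteria, relative to their means over the 13 libraries, was 1.92 in LV AOB-H replicate 6, 0.04 to 0.53 in the other LV AOB-H libraries, -0.71 to -1.29 in LV Sham-H replicates 4 to 6 and -0.24 to 0.03 in the other sham libraries, on the log2 scale. How much of this came from the RNA or library preparation was not tested.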
